A study of Mus musculus with 2 samples.

Results

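The 10 genes described here encode proteins of the junctions and the surface of endothelial cells: Pecam1, Cdh5, Cldn5, Esam, Tjp1, Plvap, Emcn, Eng, Egfl7 and Ptprb. They were taken by gene symbol from the 32285 genes counted in each library, and each symbol matched 1 gene. They are described in single-cell RNA sequencing of mouse kidney cells from 2 libraries, 1 made after cisplatin and 1 after saline.

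Cisplatin, a platinum chemotherapy drug that injures the kidney tubule, was given at 20 mg/kg to male C57BL6/J mice aged 10 to 12 weeks, and kidneys were taken 72 h later. Mice of the same sex, strain and age received saline. The design text names 5 mice and a total of 10 kidneys for each condition, and each condition has 1 library, so there is no replicate. Digested tissue was passed over magnetic beads against CD31, the protein that Pecam1 encodes, and then over beads against podoplanin, with lymphatic endothelial cells as the intended product. Because the first beads select on CD31 protein in both groups, neither group is a sample of all kidney cells.

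An endothelial junction is built in layers. Adherens junctions hold neighbouring cells together through VE-cadherin, tight junctions limit what passes between cells through claudins tied to scaffold proteins, and Ig-family receptors such as PECAM-1 and ESAM line the contact and let leukocytes through. In the kidney these cells differ along the vessel: capillaries around the tubules have fenestrae closed by a thin diaphragm, glomerular capillaries have fenestrae that mostly lack one, and arteries have a continuous, tighter wall.

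The cisplatin library held 19994105 unique molecular identifiers (UMIs, each counting 1 captured transcript) and the saline library 5879496. Barcodes with at least 500 UMIs and at most 20% mitochondrial UMIs numbered 1729 in cisplatin (median 746 UMIs) and 627 in saline (median 896 UMIs), with 0 kept barcodes shared between libraries. Another 1712 cisplatin barcodes and 3 saline barcodes passed the UMI minimum and failed the mitochondrial limit. Each kept barcode was assigned by marker genes that do not include the 10 described here. The capillary gate took 63 cisplatin and 190 saline barcodes, the glomerular gate 38 and 34, and the arterial gate 14 and 168. With 26 cisplatin and 36 saline barcodes of no single vessel type they make up 141 endothelial barcodes in cisplatin (8.16% of kept, 95% interval 6.91 to 9.55) and 428 in saline (68.3%, 64.5 to 71.9). All intervals are exact and cover counting error only, since nothing in the series measures the spread between libraries.

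The labels call the cells lymphatic endothelial, and the markers most particular to that lineage were rare in the kept barcodes. Of Prox1, Lyve1, Mmrn1, Reln and Ccl21a, 5 genes that mark lymphatic endothelium, no kept barcode of either library held 2 or more. Prox1, the transcription factor of lymphatic identity, had a UMI in 2 of 141 endothelial barcodes in cisplatin and in 1 of 428 in saline. Pdpn, which encodes the podoplanin of the second beads, had one in 3 of 141 and 1 of 428. Flt4, a growth factor receptor of lymphatic endothelium that fenestrated blood capillaries also express, had one in 37 of 141 and 30 of 428. The endothelial barcodes are therefore called capillary, glomerular and arterial after the marker lists that placed them.

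The endothelial gates also differed in depth and purity, and these values stand beside every comparison below. Median UMIs per barcode were 2591 in cisplatin and 865.5 in saline for the capillary gate, 4536 and 1160 for the glomerular gate, and 5301 and 2214.5 for the arterial gate. The deepest cisplatin glomerular barcode alone held 116215 UMIs, 32.7% of its gate. Mitochondrial UMIs were 5.76% of the endothelial total in cisplatin and 2.16% in saline, and free RNA, estimated from tubule markers, was 7.82% and 2.62%. Of 10 podocyte markers, 10 had UMIs in the cisplatin glomerular gate (335 UMIs in all, 0 to 127 per barcode) and 4 in the saline one (11 UMIs, 0 to 3 per barcode). In the capillary gate 6 had UMIs in cisplatin (80 UMIs) and 8 in saline (68 UMIs), and the arterial gate held 91 podocyte marker UMIs in cisplatin and 220 in saline. Doublets were not called. Values were therefore also computed with each barcode thinned to 500 UMIs, so that barcodes weigh equally, without the deepest barcode of each gate, and without barcodes holding a podocyte marker; beyond those alternatives, the part of depth and mixed barcodes in the results was not tested.

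Across the 3 vessel types the 10 genes did not move as a block. In the cisplatin library, Ptprb was lower than in saline in the capillary and glomerular gates, and Cldn5 was higher in the arterial gate. Eng was higher in the capillary and arterial gates, with the arterial call kept in 6 of 10 alternatives. Tjp1 was neither higher nor lower in any gate. A gene was counted as higher or lower when the ratio of cisplatin to saline in CPM, the UMIs of a gene per 1000000 UMIs of the gate, was at least 1.5 in either direction with an interval that left out 1. All 10 genes had at least 20 UMIs over both libraries in every gate.

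In the capillary gate 2 of the 10 were higher (Cldn5 and Eng), against 9.58% of the 4322 genes with enough UMIs, and 1 was lower (Ptprb), against 9.53%. In the glomerular gate 1 was higher (Egfl7), against 7.03% of 3942 genes, and 3 were lower (Pecam1, Plvap and Ptprb), against 7.41%. In the arterial gate 3 were higher (Pecam1, Cldn5 and Eng), against 5.22% of 5611 genes, and 0 were lower, against 8.25%. Over all endothelial barcodes 3 were higher (Plvap, Eng and Egfl7), against 12.7% of 8582 genes, and 1 was lower (Ptprb), against 9.65%. The median log2 ratio of the 10 genes was 0.27 in the capillary, 0.02 in the glomerular and 0.20 in the arterial gate, beside -0.03, -0.06 and -0.08 over all genes with enough UMIs. With only 10 genes these counts are small, and the values that follow are those of single genes. Median-of-ratios scaling moved the median of all genes by 0.18 in the capillary and 0.33 in the glomerular gate on the log2 scale, and the share of called genes that were higher to 71.7% and 79.6%, beside 50.1% and 48.7% by CPM; under it 3 of the 10 were higher and 1 lower in capillaries, and 2 higher and 2 lower in glomeruli. The vessel makeup of the 2 libraries differed as well: arterial barcodes gave 14.8% of endothelial UMIs in cisplatin and 69.3% in saline, and a ratio over all endothelial barcodes carries that difference.

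**Figure D1:**
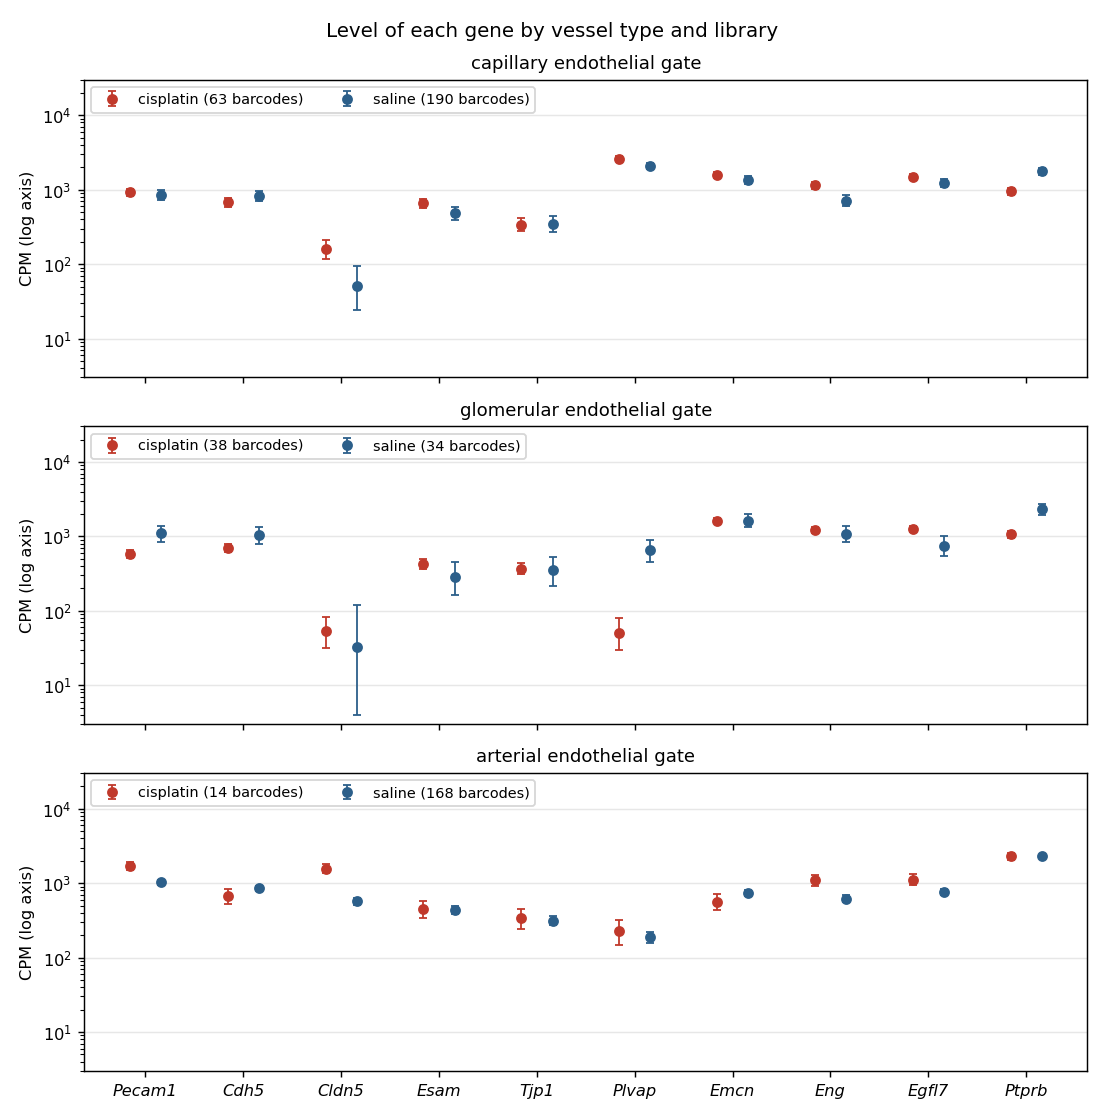
Level of each gene in CPM (log axis) in the capillary, glomerular and arterial gates, with the cisplatin library in red and the saline library in blue and exact 95% Poisson intervals as bars. Plvap stands high in capillaries and low in arteries, Cldn5 the reverse, and Ptprb is lower in cisplatin in the capillary and glomerular panels.

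Ptprb encodes VE-PTP, an endothelial phosphatase that binds VE-cadherin and the angiopoietin receptor Tie2. Ptprb was lower in cisplatin in the capillary and glomerular gates. Its gene lies on chromosome 10 at 116275523 to 116389535 (plus strand, GRCm38). In capillary barcodes it had 948 CPM in cisplatin (283 UMIs) and 1757 CPM in saline (346 UMIs), a ratio of 0.539 (0.459 to 0.633). In glomerular barcodes it had 1071 CPM in cisplatin (381 UMIs) and 2322 CPM in saline (140 UMIs), a ratio of 0.461 (0.379 to 0.564). Both intervals lie wholly below 1, and in both gates the gene stayed lower, past the same limit, under all 10 alternatives that gave its ratio (0.460 to 0.613 in capillaries, 0.427 to 0.580 in glomeruli).

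The arterial gate did not share this value. Ptprb had 2289 CPM in cisplatin and 2281 CPM in saline there, a ratio of 1.004 (0.881 to 1.14). That level rests on 14 cisplatin barcodes, of which 1 gave 93 of the 286 UMIs. With each barcode thinned to 500 UMIs the arterial ratio was 0.518 (0.255 to 0.942), and without barcodes holding a podocyte marker, which left 4 cisplatin barcodes, it was 0.490 (0.233 to 0.911). Whether the arterial gate differs from the other 2 was not tested.

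The share of barcodes with a Ptprb UMI was also lower in cisplatin at equal depth. After thinning, 30.2% of capillary barcodes in cisplatin (19.2 to 43.0) and 53.7% in saline (46.3 to 60.9) held one. In the glomerular gate it was 47.4% in cisplatin (31.0 to 64.2) and 67.6% in saline (49.5 to 82.6), and in the arterial gate 28.6% (8.39 to 58.1) and 72.0% (64.6 to 78.7). The glomerular intervals overlap and the capillary and arterial ones do not. Unthinned, the capillary shares were 71.4% in cisplatin and 74.2% in saline, at median depths of 2591 and 865.5 UMIs. Of all UMIs of the 10 genes in endothelial barcodes, Ptprb gave 13.4% in cisplatin (12.7 to 14.2) and 26.1% in saline (25.1 to 27.1). The free RNA of the libraries, read from barcodes of 1 to 100 UMIs, held Ptprb at 123 CPM in cisplatin and 384 CPM in saline, and subtracting it left the capillary ratio at 0.568 (0.483 to 0.667).

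Cdh5 encodes VE-cadherin, the adhesion molecule of the junction itself (chromosome 8, 104101625 to 104144511). It had 683 CPM in cisplatin and 828 CPM in saline in capillaries, a ratio of 0.825 (0.668 to 1.02). In glomeruli the levels were 697 CPM in cisplatin and 1045 CPM in saline, a ratio of 0.667 (0.504 to 0.894) that falls just short of the 1.5-fold limit. In arteries they were 664 CPM in cisplatin and 854 CPM in saline, a ratio of 0.778 (0.610 to 0.981). All 3 ratios are below 1, and none passed the limit. The call depended on the setting: at equal depth per barcode the capillary ratio was 0.565 (0.302 to 0.989) and that over all endothelial barcodes 0.635 (0.431 to 0.914), and with 4 endothelial markers required the glomerular ratio was 0.664 (0.5003 to 0.894), all 3 past the limit. By share, Cdh5 was seen in 22.2% of capillary barcodes in cisplatin (12.7 to 34.5) and 32.6% in saline (26.0 to 39.8), shares whose intervals overlap.

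Pecam1 (chromosome 11, 106654217 to 106750628, minus strand) encodes the Ig-family receptor CD31 through which the cells were enriched. Over all endothelial barcodes it had 858 CPM in cisplatin and 993 CPM in saline, a ratio of 0.865 (0.784 to 0.954), and it was seen in 70.2% of them in cisplatin (61.9 to 77.6) and 67.1% in saline (62.4 to 71.5). At equal depth the shares were 37.6% (29.6 to 46.1) and 38.6% (33.9 to 43.3). Among all kept barcodes, by contrast, 13.9% in cisplatin and 49.8% in saline held a Pecam1 UMI, so the libraries differed far more in how many endothelial barcodes they held than in Pecam1 within them.

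By vessel type the Pecam1 values went apart. In capillaries it had 921 CPM in cisplatin and 843 CPM in saline, a ratio of 1.09 (0.898 to 1.33). In glomeruli it had 582 CPM in cisplatin and 1095 CPM in saline, a ratio of 0.532 (0.401 to 0.712), and in arteries 1705 CPM in cisplatin and 1026 CPM in saline, a ratio of 1.66 (1.42 to 1.94). Neither of the last 2 held at equal depth per barcode, where they were 0.964 (0.420 to 2.23) and 1.71 (0.927 to 2.96). The arterial level also came in large part from 1 barcode with 88 of its 213 UMIs, without which the ratio was 1.18 (0.964 to 1.43), and the barcodes without a podocyte marker gave 0.325 (0.0665 to 0.967).

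Esam, a second Ig-family receptor at the tight junction (chromosome 9, 37528078 to 37538319), passed the limit in none of the gates as first computed. It had 656 CPM in cisplatin and 483 CPM in saline in capillaries, a ratio of 1.36 (1.06 to 1.76). The ratio was 1.52 (0.916 to 2.67) in glomeruli and 1.02 (0.751 to 1.36) in arteries. The capillary call was kept in 8 of 10 alternatives (1.09 to 1.58), and past the limit in the other 2, median-of-ratios scaling and removal of podocyte-marker barcodes. Its share at equal depth was 22.2% of capillary barcodes in cisplatin and 23.2% in saline.

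Tjp1 encodes the scaffold protein ZO-1, which ties claudins to actin (chromosome 7, 65296165 to 65527781, minus strand). Its ratio was 0.979 (0.713 to 1.35) in capillaries, 1.06 (0.664 to 1.77) in glomeruli and 1.08 (0.754 to 1.51) in arteries. Its level stayed within a narrow range across vessels, from 336 to 368 CPM over the 3 cisplatin gates and from 312 to 348 CPM over the 3 saline gates.

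Cldn5, the main claudin of endothelial tight junctions (chromosome 16, 18776847 to 18778262), was an arterial gene in both libraries. In the cisplatin library capillaries had 157 CPM and arteries 1561 CPM, a capillary to arterial ratio of 0.101 (0.0717 to 0.139). In the saline library they had 50.8 CPM and 569 CPM, a ratio of 0.0892 (0.0424 to 0.166). Glomerular barcodes had 53.4 CPM in cisplatin and 33.2 CPM in saline, from 19 and 2 UMIs. The order of arteries above the other 2 vessel types held in both libraries, and in each the capillary to arterial interval lay far from 1.

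In arteries Cldn5 was higher in cisplatin than in saline, at a ratio of 2.74 (2.29 to 3.27). It was higher under all 10 alternatives, from 2.51 to 5.80. The 195 cisplatin UMIs came from 10 of 14 barcodes, and 1 of these held 85 of them. At equal depth Cldn5 was seen in 35.7% of arterial barcodes in cisplatin (12.8 to 64.9) and 22.0% in saline (16.0 to 29.1), intervals that overlap.

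In capillaries the Cldn5 ratio of 3.10 (1.55 to 6.88) rested on a single barcode. It held 39 of the 47 cisplatin UMIs and, with 49904 UMIs in all, 434 UMIs of arterial markers beside 207 of capillary markers. Without the deepest barcode of each library the ratio was 0.682 (0.229 to 1.99), and at equal depth it was 0.754 (0.0153 to 7.62). Podocytes also express Cldn5, and the 9 cisplatin podocyte barcodes together held it at 690 CPM (41 UMIs in 4 of them).

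Plvap encodes PV-1, the protein of the fenestral diaphragm (chromosome 8, 71497765 to 71511752, minus strand), and was high in capillaries and low in arteries of both libraries. In cisplatin it had 2602 CPM in capillaries and 224 CPM in arteries, a ratio of 11.6 (7.97 to 17.6). In saline it had 2088 CPM in capillaries and 187 CPM in arteries, a ratio of 11.1 (9.09 to 13.7). The intervals of the 2 libraries overlap almost fully. Between the libraries the capillary ratio was 1.25 (1.10 to 1.41) and the arterial ratio 1.20 (0.764 to 1.82), neither past the limit. At equal depth 58.7% of capillary barcodes in cisplatin (45.6 to 71.0) and 60.5% in saline (53.2 to 67.5) held a Plvap UMI.

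The glomerular gate held much less Plvap than the capillary gate, and less in cisplatin than in saline. The glomerular level was 50.6 CPM in cisplatin (18 UMIs) and 647 CPM in saline (39 UMIs), a ratio of 0.0782 (0.0421 to 0.140). Set against capillaries of the same library, the glomerular level was 0.0194 of theirs in cisplatin (0.0115 to 0.0309) and 0.310 of theirs in saline (0.217 to 0.431). In saline 12 of the 39 UMIs lay in 1 barcode, which held 20 arterial, 13 capillary and 6 glomerular marker UMIs. At equal depth the cisplatin to saline ratio was 0.511 (0.110 to 2.01), which no longer leaves out 1, with a Plvap UMI in 2 of 38 cisplatin and 7 of 34 saline glomerular barcodes. The glomerular markers themselves stood at 8918 CPM in the cisplatin glomerular gate and 3715 CPM in the saline one. Arterial markers stood at 1610 CPM and 2819 CPM there, and capillary markers at 3654 CPM and 1658 CPM. The 2 gates were thus not equally rich in the vessel they name, and the same 2 gates stand behind every glomerular ratio of cisplatin to saline. The part of this in the Plvap ratio and in the other glomerular ratios was not tested.

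Emcn encodes endomucin, a surface sialomucin of capillaries and veins (chromosome 3, 137341067 to 137432185). It was lower in arteries than in capillaries in both libraries: 1587 CPM in capillaries and 560 CPM in arteries in cisplatin, a ratio of 2.83 (2.20 to 3.70), and 1336 CPM and 743 CPM in saline, a ratio of 1.80 (1.54 to 2.09). Glomerular levels were 1627 CPM in cisplatin and 1625 CPM in saline, a ratio of 1.001 (0.807 to 1.25). Between the libraries the capillary ratio was 1.19 (1.02 to 1.39) and the arterial ratio 0.754 (0.578 to 0.971), and neither passed the limit of 1.5. Over all endothelial barcodes Emcn had 1404 CPM in cisplatin and 938 CPM in saline, a ratio of 1.497 (1.37 to 1.63) just short of the limit, and it was past the limit in 7 of 10 alternatives, which ranged from 1.09 to 1.61.

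The promoters of Emcn and Cldn5 are shown because, of the genes with a matched promoter, Emcn was higher in capillaries than in arteries and Cldn5 lower in both libraries, and that of Eng because its level differed between the libraries in a pair of gates. Each run is 250 bases before to 50 bases after a transcription start, plus strand, from RefSeq (GRCm38.p6), and capitals mark CAGGAA or its reverse complement TTCCTG, a form of the core that ETS family factors bind. Of 32851 mouse promoters of this length, 30.6% hold it on either strand.
Emcn promoter (chr3:137340828-137341127): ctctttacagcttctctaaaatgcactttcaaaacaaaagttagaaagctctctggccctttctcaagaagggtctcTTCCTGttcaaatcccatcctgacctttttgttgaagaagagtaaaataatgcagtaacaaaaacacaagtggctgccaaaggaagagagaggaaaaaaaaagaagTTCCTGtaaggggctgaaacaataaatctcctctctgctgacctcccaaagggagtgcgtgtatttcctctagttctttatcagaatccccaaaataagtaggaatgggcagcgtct
Cldn5 promoter (chr16:18776597-18776896): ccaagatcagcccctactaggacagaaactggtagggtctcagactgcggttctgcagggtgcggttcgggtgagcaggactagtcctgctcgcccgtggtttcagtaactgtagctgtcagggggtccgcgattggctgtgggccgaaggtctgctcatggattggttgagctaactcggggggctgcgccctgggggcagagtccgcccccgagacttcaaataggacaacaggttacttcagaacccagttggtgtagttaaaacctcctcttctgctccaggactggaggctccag
Eng promoter (chr2:32646345-32646644): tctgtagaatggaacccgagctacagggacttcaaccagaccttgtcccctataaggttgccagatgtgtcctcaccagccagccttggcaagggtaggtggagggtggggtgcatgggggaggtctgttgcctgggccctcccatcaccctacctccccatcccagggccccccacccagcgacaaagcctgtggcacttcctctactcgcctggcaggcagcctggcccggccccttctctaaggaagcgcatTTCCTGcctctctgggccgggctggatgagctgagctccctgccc
The Emcn window holds 2 matches, the Cldn5 window 0 and the Eng window 1. The related form CCGGAA, present in 14.9% of promoters, is in none of the 3, and CCACCC, a form of the core that KLF factors bind, occurs 2 times in the Eng window, 0 times in the Emcn and Cldn5 windows and in 31.5% of all promoters, on either strand. The 2 ETS forms and the KLF form share no position here. A match says only that the letters are present. Promoters of 5 of the 10 genes were matched (Cldn5, Egfl7, Emcn, Eng and Tjp1), and those of Pecam1, Cdh5, Esam, Plvap and Ptprb were not.

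Eng encodes endoglin, a co-receptor for BMP9 and TGF-beta signals (chromosome 2, 32646595 to 32682669). In capillaries it had 1155 CPM in cisplatin (345 UMIs) and 711 CPM in saline (140 UMIs), a ratio of 1.62 (1.33 to 1.99). In arteries it had 1097 CPM in cisplatin and 620 CPM in saline, a ratio of 1.77 (1.45 to 2.15). In glomeruli it had 1211 CPM in cisplatin and 1078 CPM in saline, a ratio of 1.12 (0.864 to 1.48). Under the main setting cisplatin thus stood above saline in capillaries and arteries, and the glomerular interval includes 1. In capillaries 49 of the 345 cisplatin Eng UMIs lay in 1 barcode, which held 379 glomerular and 209 capillary marker UMIs. Glomerular markers stood at 2813 CPM in the cisplatin capillary gate and 1031 CPM in the saline one. The part of this in the capillary Eng ratio was not tested. In arteries 43 of the 137 cisplatin Eng UMIs lay in 1 barcode. That barcode held 46 UMIs each of capillary, glomerular and arterial markers and 51 of podocyte markers.

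At equal depth the capillary ratio of Eng was 1.95 (1.32 to 2.87), and an Eng UMI was seen in 49.2% of capillary barcodes in cisplatin (36.4 to 62.1) and 29.5% in saline (23.1 to 36.5). The capillary call was kept in 9 of 10 alternatives. The exception was the removal of barcodes with a podocyte marker, which left 37 cisplatin and 150 saline barcodes and a ratio of 1.16 (0.854 to 1.56). The arterial call was kept in 6 of 10 alternatives, which ranged from 0.894 to 1.84. At equal depth an Eng UMI was seen in 28.6% of arterial barcodes in cisplatin (8.39 to 58.1) and 26.2% in saline (19.7 to 33.5). The glomerular ratio at equal depth was 0.572 (0.323 to 0.991).

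Egfl7, a secreted matrix factor of endothelial cells, lies on chromosome 2 (26580014 to 26593120) and carries the microRNA miR-126 within its gene model. The mature strand is shown, from RefSeq, with its seed (bases 2 to 8) in capitals; the libraries did not measure it.
mmu-miR-126a-3p (chr2:26591402-26591423): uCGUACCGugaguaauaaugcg
Egfl7 itself had 1497 CPM in cisplatin and 1224 CPM in saline in capillaries, a ratio of 1.22 (1.04 to 1.44). In glomeruli it had 1254 CPM in cisplatin and 746 CPM in saline, a ratio of 1.68 (1.23 to 2.34), and in arteries 1113 CPM in cisplatin and 763 CPM in saline, a ratio of 1.46 (1.20 to 1.76). All 3 intervals lie above 1, and only the glomerular ratio passed 1.5. The arterial ratio ranged from 1.22 to 2.42 over 10 alternatives and stayed short of the limit in 6. At equal depth the glomerular ratio was 1.16, and the share of glomerular barcodes with a UMI was 44.7% in cisplatin (28.6 to 61.7) and 41.2% in saline (24.6 to 59.3).

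**Figure D2:**
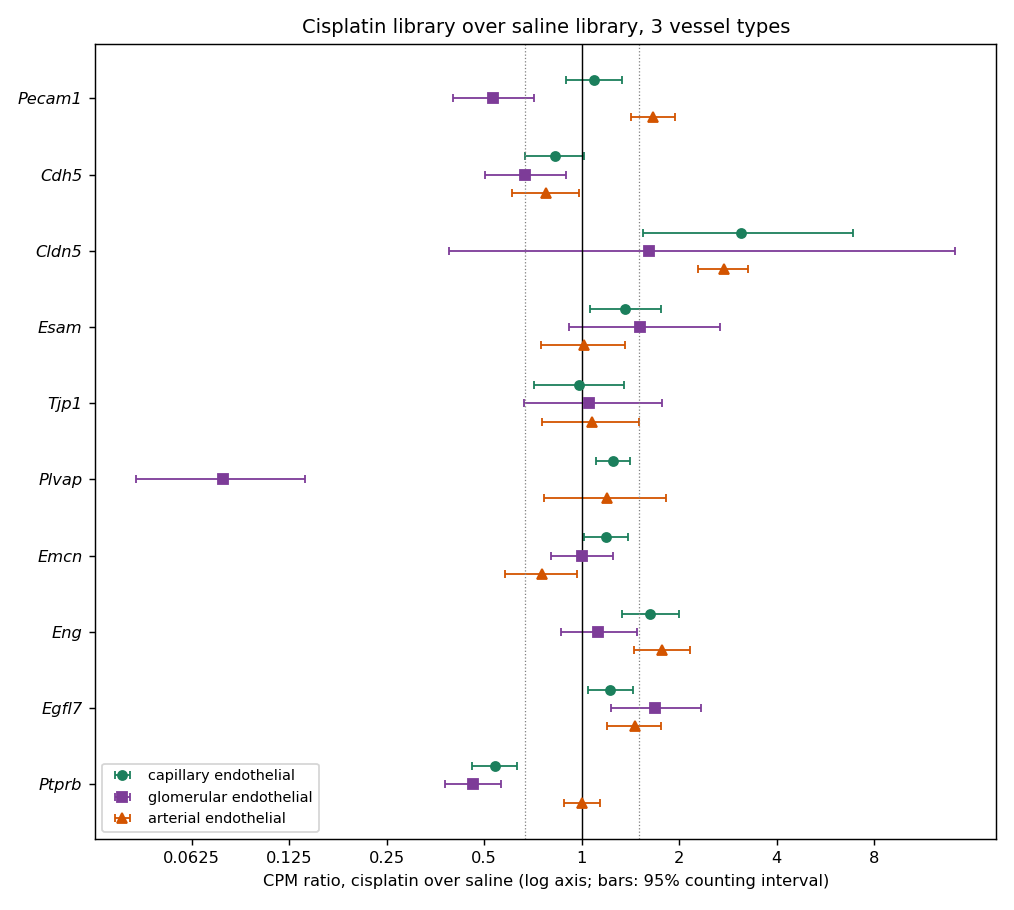
Ratio of CPM, cisplatin over saline, for each gene in the 3 vessel gates (log axis, bars are exact 95% counting intervals, dotted lines mark 1.5-fold either way). Ptprb lies near 0.5 in capillaries and glomeruli and at 1.004 in arteries, and Plvap is farthest from 1 in glomeruli.

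**Figure D3:**
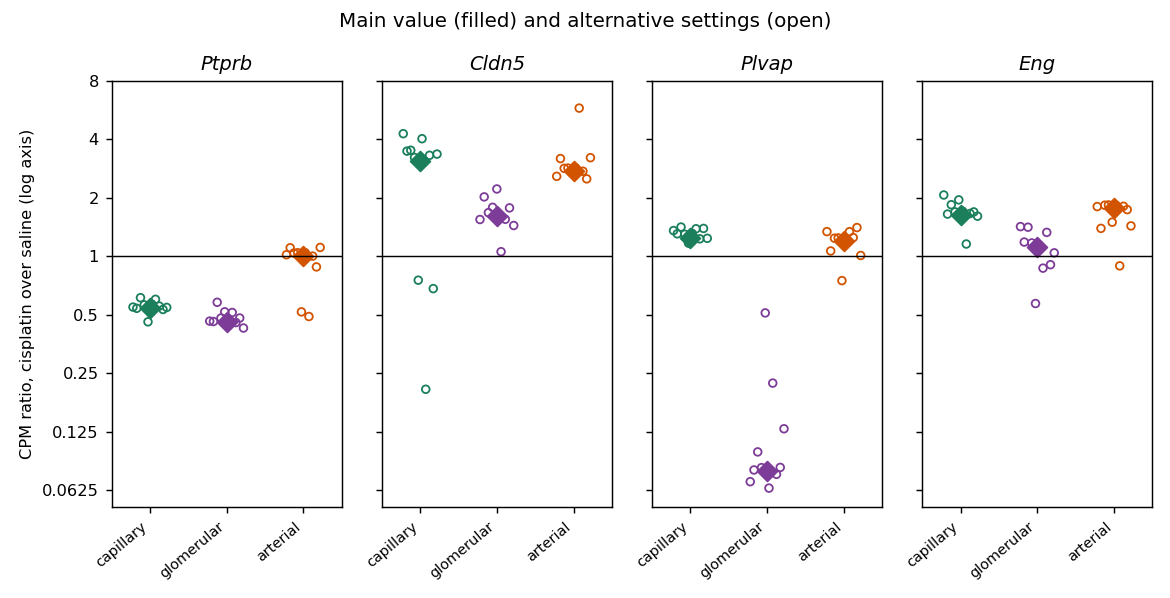
Ratio of CPM, cisplatin over saline (log axis), for 4 of the genes under the main setting (filled diamond) and 10 alternative settings (open circles, ratios against 0 UMIs not drawn). The Ptprb points stay together in capillaries and glomeruli, while Cldn5 in capillaries and Plvap in glomeruli spread widely.

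Along the vessel tree the genes fell into a few patterns. Plvap and Emcn were higher in capillaries than in arteries and Cldn5 lower, in both libraries, and Cdh5, Esam, Tjp1 and Eng did not differ by 1.5-fold between capillaries and arteries in either. Egfl7 had a capillary to arterial ratio of 1.35 (1.11 to 1.64) in cisplatin and 1.60 (1.37 to 1.88) in saline, past 1.5 in saline only. Cdh5, for example, had capillary to arterial ratios of 1.03 (0.793 to 1.34) in cisplatin and 0.969 (0.809 to 1.16) in saline. Ptprb and Pecam1 had ratios that differed between the libraries under the main setting. The capillary to arterial ratio of Ptprb was 0.414 (0.350 to 0.490) in cisplatin and 0.771 (0.684 to 0.867) in saline. That of Pecam1 was 0.540 (0.450 to 0.649) and 0.822 (0.689 to 0.9752). Both cisplatin ratios rest on 14 arterial barcodes, with 93 of 286 Ptprb and 88 of 213 Pecam1 UMIs in 1 barcode each. Over 10 alternatives the arterial ratio of cisplatin to saline ranged from 0.490 to 1.11 for Ptprb and from 0.325 to 1.88 for Pecam1.

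In proximal tubule and leukocyte barcodes the 10 genes were low. In proximal tubule barcodes they summed to 957 CPM in cisplatin and 1416 CPM in saline, against 8722 CPM and 8315 CPM in endothelial barcodes. In leukocyte barcodes they summed to 95.1 CPM over 71 cisplatin barcodes (median 1225 UMIs), and only 3 saline barcodes were leukocytes. The free RNA held the sum at 1352 CPM in cisplatin and 2002 CPM in saline, so the tubule sum lay below it and is read here as background. Gene by gene the tubule level was also below free RNA, except for Tjp1 in cisplatin and Eng in saline. Tjp1 had 61.4 CPM in cisplatin tubule barcodes and 56.5 CPM in free RNA. Eng had 261 CPM in saline tubule barcodes and 177 CPM in free RNA. Whether the tubule UMIs of these genes are background was not tested. Sums were higher in the few podocyte barcodes, at 6073 CPM over 9 cisplatin barcodes and 3057 CPM in 1 saline barcode, and in 4 cisplatin collecting duct barcodes, at 2283 CPM. The endothelial level was 0.989 times (0.773 to 1.28) the podocyte level for Eng and 0.450 times (0.323 to 0.642) for Cldn5 in cisplatin. Of the podocyte UMIs, 63 of 68 for Eng and 24 of 41 for Cldn5 lay in 1 barcode each. The deepest barcode held 58.1% of the UMIs of the cisplatin podocyte gate and 92.3% of those of the collecting duct gate. Up to 369 and 163 pan-endothelial marker UMIs lay in 1 barcode of these gates. The part of mixed barcodes in these values was not tested. Barcodes of no class summed to 988 CPM over 265 in cisplatin and 4782 CPM over 40 in saline.

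By share, at 500 UMIs per barcode, a Cdh5 UMI was seen in 0.765% of proximal tubule barcodes in cisplatin and 3.38% in saline, at unthinned median depths of 742 and 686.5 UMIs. The highest tubule shares were 8.92% for Egfl7 in cisplatin and 14.2% for both Eng and Egfl7 in saline. Among the endothelial gates the lowest shares were those of Cldn5 in capillaries, 1.59% in cisplatin and 2.11% in saline, which lie at or below its tubule shares of 2.38% and 3.38%. Cldn5 in saline glomeruli, at 2.94%, was also below its tubule share. Plvap was at 5.26% in cisplatin glomeruli, and at 7.14% in cisplatin arteries (0.181 to 33.9) and 8.33% in saline arteries (4.63 to 13.6), beside tubule shares of 4.59% in cisplatin and 6.76% in saline. At this depth these shares are not told from the tubule shares. The tubule shares need not equal the background of the endothelial gates, which held less free RNA by the tubule-marker estimate. That estimate was 1.29% in saline arteries, where unthinned Plvap had 187 CPM, beside 160 CPM in the free RNA. It was 5.58% in saline capillaries, where Cldn5 had 50.8 CPM, beside 210 CPM in the free RNA. Whether the UMIs behind these shares are background was not tested.

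**Figure D4:**
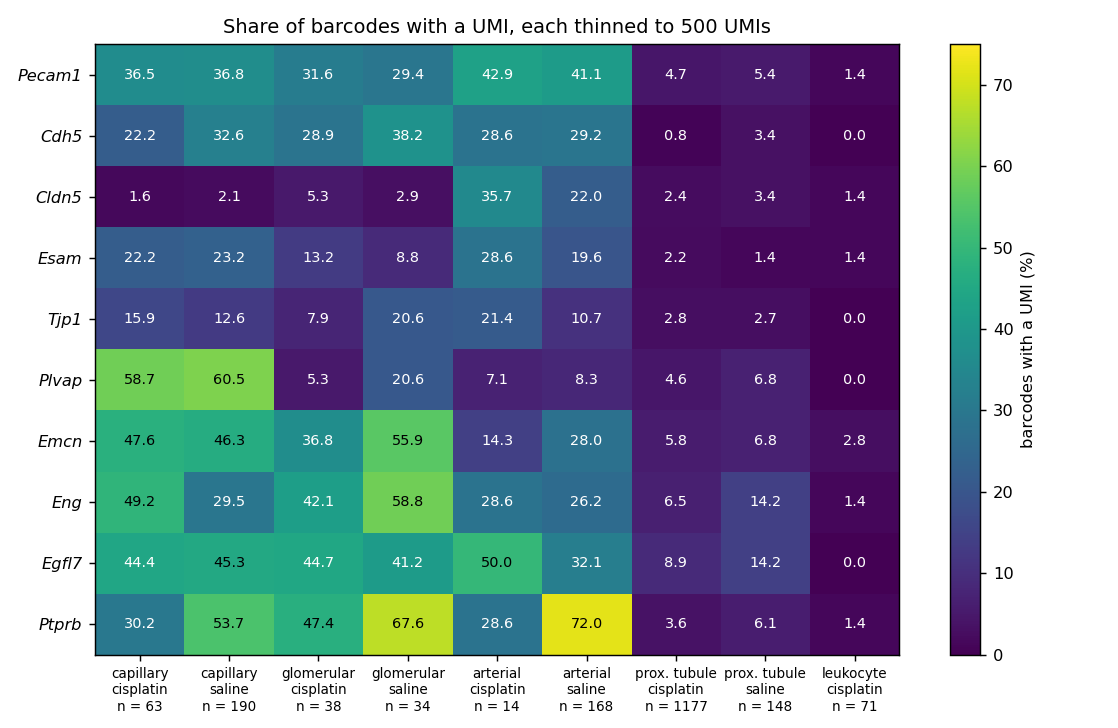
Share of barcodes with at least 1 UMI of each gene (percent, colour and number) after thinning every barcode to 500 UMIs, by gate and library, cisplatin left of saline. The endothelial columns hold the high values, Plvap peaks in capillaries at 58.7% and 60.5%, and Ptprb is lower in the cisplatin column of each vessel type.

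Barcode by barcode, at 500 UMIs, any 3 or more of the 10 genes were seen in 59.6% of endothelial barcodes in cisplatin (51.0 to 67.7). In saline it was 68.2% (63.6 to 72.6). The number that the share of each gene alone would give was not computed. At 500 UMIs a capillary barcode held a median of 3 of the 10 genes in both libraries, and 65.1% in cisplatin (52.0 to 76.7) and 72.6% in saline (65.7 to 78.8) held at least 3. In glomeruli 52.6% in cisplatin (35.8 to 69.0) and 85.3% in saline (68.9 to 95.05) held at least 3, and these intervals overlap by little. In arteries the shares were 57.1% (28.9 to 82.3) and 60.7% (52.9 to 68.1). Of proximal tubule barcodes 1.27% in cisplatin and 3.38% in saline held 3 or more, and 787 of 1177 in cisplatin and 74 of 148 in saline held none.

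**Figure D5:**
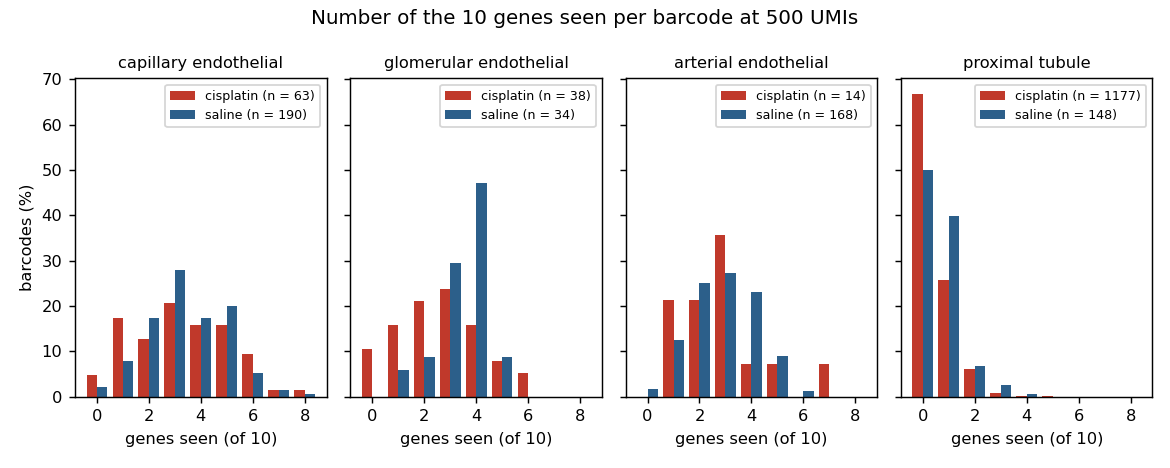
Percent of barcodes (vertical axis) by the number of the 10 genes seen after thinning to 500 UMIs (horizontal axis), in the 3 vessel gates and in proximal tubule, cisplatin in red left of saline in blue. Tubule barcodes pile up at 0, and glomerular saline barcodes peak at 4.

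Much of the genes' RNA lay outside the endothelial gate. Of all UMIs of the 10 genes, 25.6% in cisplatin (7356 of 28713) and 44.7% in saline (7883 of 17643) were in endothelial barcodes. Barcodes with more than 100 and fewer than 500 UMIs held 53.2% in cisplatin and 11.3% in saline, and barcodes of 1 to 100 UMIs held 10.1% and 42.0%. In the first of these classes the level of the 10 genes together was 1142 CPM in cisplatin and 1911 CPM in saline, far under that of the endothelial gates. Of the 1712 cisplatin barcodes over the mitochondrial limit, 28 passed the endothelial gate.

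Of 47 other junction and surface genes, 37 had at least 20 UMIs in endothelial barcodes, and 6 of these were higher, against 12.7% of all genes with enough UMIs, and 9 lower, against 9.65%, in cisplatin. The 4 named as higher all belong to epithelial junctions: Cdh16, the kidney cadherin, with 104 cisplatin and 8 saline UMIs, Cdh1, E-cadherin, with 34 and 0, Cldn7 with 26 and 1, and Cldn8 with 24 and 0. Their RNA was concentrated, since 1 barcode, that of 116215 UMIs, held 156 of the 225 epithelial junction UMIs in cisplatin endothelial barcodes. Without the deepest barcode of each library only Cdh16 of the 4 still had 20 UMIs, with 13 in cisplatin and 8 in saline, a ratio of 2.07 (0.796 to 5.76), and the counts over the list were 3 higher (Jup, Pcdh12 and Magi3), against 10.6% of 8225 genes, and 7 lower, against 9.79%. The cisplatin glomerular gate, which holds that barcode, also held 697 collecting duct marker UMIs (7 of 10 markers, up to 654 in 1 barcode), against 0 in the saline glomerular gate; their part in these ratios was not tested.

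The 4 genes named as lower were Cd93, Thbd, Cdh13 and Magi1. Cd93, a C-type lectin-like receptor, had 306 CPM in cisplatin and 920 CPM in saline, a ratio of 0.333 (0.288 to 0.383). Thbd, thrombomodulin, the thrombin receptor that starts protein C activation, had 328 CPM in cisplatin and 689 CPM in saline, a ratio of 0.477 (0.413 to 0.550). Cdh13, T-cadherin, had a ratio of 0.392 (0.233 to 0.638); 13 of its 23 cisplatin and 63 of its 66 saline UMIs were arterial, and within arteries its ratio was 1.08 (0.548 to 1.99). Magi1, a junction scaffold, had a ratio of 0.270 (0.0905 to 0.674) from 6 and 25 UMIs. Of these, 0 of the cisplatin and 19 of the saline UMIs were arterial. Within arteries its interval was 0 to 1.13, and within capillaries its ratio was 0.659 (0.123 to 3.54). Without the deepest barcodes Cd93 was at 0.383 (0.332 to 0.441) and Thbd at 0.528 (0.455 to 0.611). Cd93 was also lower within the capillary gate, at 0.548 (0.428 to 0.701), and within the glomerular gate, at 0.152 (0.0926 to 0.247). In arteries, which held 661 of its 872 saline UMIs, Cd93 was at 0.684 (0.540 to 0.857), short of the limit. Thbd was at 1.19 (0.892 to 1.61) in capillaries, 0.496 (0.317 to 0.799) in glomeruli and 0.561 (0.419 to 0.738) in arteries.

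The binding partners of VE-PTP and VE-cadherin were measured as well. Tek, which encodes Tie2, had 465 CPM in cisplatin and 467 CPM in saline in capillaries, a ratio of 0.996 (0.760 to 1.31). In glomeruli it had 323 CPM in cisplatin and 481 CPM in saline, a ratio of 0.672 (0.444 to 1.05). Ctnnb1, beta-catenin, which binds the tail of VE-cadherin, had a ratio of 0.866 (0.750 to 0.9997) over all endothelial barcodes. Jup, plakoglobin, another tail partner, had 427 CPM in cisplatin and 168 CPM in saline, a ratio of 2.55 (2.11 to 3.09), and 2.30 (1.89 to 2.81) without the deepest barcodes. Within capillaries the Jup ratio was 1.16 (0.874 to 1.54), within glomeruli 1.89 (1.13 to 3.37) and within arteries 1.84 (1.06 to 3.07), the last pair past the limit. In glomeruli 75 of the 178 cisplatin Jup UMIs lay in the barcode of 116215 UMIs. The deepest saline glomerular barcode held 0 of 16. The part of that cisplatin barcode in the glomerular Jup ratio was not tested. Tek, Ctnnb1 and Jup were named after their values were seen.

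Likeness in level was taken across 13 combinations of gate and library with at least 10 barcodes. Candidates were 3176 genes outside the 10 genes and the marker lists. Of these, the genes most like Pecam1 were Tie1 (Pearson r 0.977 of log2(CPM + 10)), Tek (0.974) and Afap1l1 (0.974). Among the 10 genes, Ptprb (0.983) and Cdh5 (0.977) had values as high. Those most like Plvap were Rsad2 (0.915), Tnfsf10 (0.892) and Otud4 (0.868). Those most like Cldn5 were Rasa1 (0.864), Tgm2 (0.853) and Adipor2 (0.846). The points include non-endothelial classes and share the 2 libraries, and the values are a description only.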

How the data were processed

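Single-cell gene expression was measured in 1 library per condition. The authors deposited UMI counts per gene and barcode; Cell Ranger 6.0.1 and mm10 are named per the submitters' processing notes, while the deposited matrix headers carry mark 4. From these counts, barcodes with at least 500 UMIs and at most 20% mitochondrial UMIs were kept. A class needed at least 3 distinct markers of its list and more UMIs of it than of any other of the 8 lineage lists, and a vessel type at least 2 markers and the largest share of its list. No doublet caller was run.

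Counts of each gene were summed per gate and library and divided by the gate's UMIs (CPM). Intervals at 95% are exact (Clopper-Pearson for shares and, conditionally, for ratios; Poisson for levels). Log2 ratios used 0.5 UMI added. With 1 library per condition no test was made. Genes needed 20 UMIs over both libraries. Depth was 19994105 UMIs in cisplatin and 5879496 in saline.

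The 10 genes and all lists were chosen with earlier results of these data known. Named by rule were the 10 genes and up to 4 other junction genes per direction whose interval bound nearest 1 was farthest from it. Also named by rule were the 3 genes most like each of Pecam1, Plvap and Cldn5, outside the 10 genes and the marker lists. Alternatives were 11: other scalings, UMI and mitochondrial limits, thinning to 500 UMIs (1 random draw), free RNA subtracted, no gene minimum, 4 markers required, no podocyte-marker barcodes and, chosen after seeing the data, no deepest barcode and 1 other that is counted among the alternatives and not reported here. The ratio calculation was tested on simulated data. Gene positions are from GENCODE on GRCm38. Cdh5, Plvap, Eng and Egfl7 overlap Gm29682, Gtpbp3, Fpgs and Agpat2 on the other strand; no label says whether counting used strand, so reads of each pair may not be told apart. Python 3.11.15, numpy 2.4.6, scipy 1.17.1 and matplotlib 3.10.9 were used.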

Additional observations from a re-analysis of the deposited data

Results flagged for a closer look

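Under the main setting the libraries differed for 3 genes in opposite directions in 2 vessel types, with counting intervals that leave out 1 on both sides. The difference between vessel types was not tested, since each condition has 1 library. The Pecam1 ratio of cisplatin to saline was 0.532 in the glomerular gate and 1.66 in the arterial gate. Over 10 alternatives these ranged from 0.491 to 0.964 and from 0.325 to 1.88, and the calls were kept in 8 and 7. The Plvap ratio was 1.25 in the capillary gate and 0.0782 in the glomerular gate. When thinned, the glomerular Plvap ratio was 0.511 with an interval that includes 1. The Emcn ratio was 1.19 in the capillary gate and 0.754 in the arterial gate.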

How the results depend on the processing

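No paired analysis was possible because each condition has 1 library. Ratios were counted once per gene and alternative. Among genes past the limit of 1.5, 3 such ratios changed direction in the capillary gate, all of Cldn5. In the arterial gate 2 did, of Pecam1 and Eng. In the glomerular gate and over all endothelial barcodes 0 did. Ratios short of the limit crossed 1 as well: that of Tjp1 in capillaries kept its side of 1 in 4 of 10 alternatives, and that of Eng in glomeruli in 7 of 10, reaching 0.572 when thinned. With barcodes thinned to 500 UMIs, 2 genes were called in the glomerular gate and 2 over all endothelial barcodes, beside 4 in each. Thinning also gave Pecam1 shares of 37.6% in cisplatin and 38.6% in saline, and a minimum of 1000 UMIs gave 84.8% and 83.4%. The glomerular to capillary ratio of Plvap was 0.0799 in cisplatin and 0.183 in saline when thinned. The capillary Cldn5 ratio reversed to 0.754 when thinned, to 0.207 without podocyte-marker barcodes and to 0.682 without the deepest barcode. Without podocyte-marker barcodes the arterial ratios of Pecam1 and Eng were 0.325 and 0.894. Thinned cisplatin ratios that reversed were those of Cldn5, glomerular to capillary, at 3.32, and of Plvap, glomerular to arterial, at 1.47. Thinned gates hold few UMIs of a gene, and the arterial gate has 14 cisplatin barcodes, so these values have wide intervals; the cause of each change was not tested. With a minimum of 1000 UMIs the glomerular Cldn5 ratio has no value, since saline then holds 0 UMIs.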
